A study of Mus musculus with 6 samples.

Results

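The calbindins and the channels, pumps and exchanger that carry calcium across epithelia were followed in whole mouse uterus on gestation day 5, when mouse embryos implant. The 7 genes, Calb1, S100g, Trpv5, Trpv6, Atp2b1, Atp2b4 and Slc8a1, were taken by symbol from a table of 37060 genes. All 7 passed the filter on low values, which left 36154 genes for testing. They were compared between 3 control mice of genotype SRC-2f/f and 3 mutant mice of genotype SRC-2d/d, 1 library from each mouse. SRC-2 is a coactivator of steroid hormone receptors encoded by Ncoa2. The study asked which genes depend on it during implantation. How the mutation was made, which cells carry it and the age of the mice were not stated in the labels.

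Calcium crosses an epithelial cell in 3 steps. It enters at the apical membrane through the channels TRPV5 and TRPV6, is carried through the cytosol by calbindins, and leaves at the basolateral membrane through plasma membrane calcium pumps (PMCA) and the sodium-calcium exchanger NCX1. The calbindins bind calcium tightly, which shuttles it and also buffers its free level. In the uterus Calb1, which encodes calbindin-D28k, and S100g, which encodes calbindin-D9k, are known as genes of the epithelium that respond to steroid hormones.

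In the mutants the 2 calbindin genes went in opposite directions and both entry channel genes were higher, whereas the 2 pump genes and the exchanger gene of the group did not pass the test. Calb1 rose 29.3-fold, Trpv5 6.93-fold and Trpv6 2.79-fold as ratios of mean levels, and S100g fell to 41.6% of the control level. The Trpv6 call was lost under 6 and the S100g call under 12 of 21 alternative settings. Of 12 epithelial marker genes 11 were called higher too, and relative to these markers the groups overlapped for both channel genes. A pump gene outside the group, Atp2b2, rose 23.2-fold, and whether its product serves the basolateral exit step in uterus was not tested. Of the 7 genes 3 were thus called higher, 1 lower and 3 not called, where 5.34% and 4.08% of all tested genes were called higher and lower (9.42% in all). A gene was called at an adjusted p under 0.05 from limma with Benjamini-Hochberg adjustment over all tested genes, and every adjusted p below is of that kind unless another tool is named. Levels are normalized counts, that is reads assigned to the gene divided by a size factor of the library.

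The promoter windows of S100g, Trpv5 and Trpv6, which are the called members with a window, are shown to set them beside one another. They come from RefSeq (GRCm38.p6), which had a window for 6 of the 7 genes, Calb1 being the other one. Each runs from 250 bases before to 50 bases after the annotated start, 5′ to 3′ on the gene's strand, in lower case with the TATA box letters TATAAA in capitals. S100g lies on the minus strand at chrX:162964550-162964849, Trpv5 on the minus strand at chr6:41680674-41680973, and Trpv6, its neighbour, on the minus strand at chr6:41636356-41636655.
S100g: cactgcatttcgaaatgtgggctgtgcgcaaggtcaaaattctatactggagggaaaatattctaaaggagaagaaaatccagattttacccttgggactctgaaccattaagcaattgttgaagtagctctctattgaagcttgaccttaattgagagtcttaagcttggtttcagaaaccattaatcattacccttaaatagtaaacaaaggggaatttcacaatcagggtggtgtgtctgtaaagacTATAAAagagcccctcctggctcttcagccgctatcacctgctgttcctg
Trpv5: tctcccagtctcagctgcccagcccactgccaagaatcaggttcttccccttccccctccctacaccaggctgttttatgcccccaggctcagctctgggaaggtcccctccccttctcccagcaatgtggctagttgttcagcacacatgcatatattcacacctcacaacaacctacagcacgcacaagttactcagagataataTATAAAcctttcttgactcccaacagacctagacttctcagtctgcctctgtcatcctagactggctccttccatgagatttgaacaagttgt
Trpv6: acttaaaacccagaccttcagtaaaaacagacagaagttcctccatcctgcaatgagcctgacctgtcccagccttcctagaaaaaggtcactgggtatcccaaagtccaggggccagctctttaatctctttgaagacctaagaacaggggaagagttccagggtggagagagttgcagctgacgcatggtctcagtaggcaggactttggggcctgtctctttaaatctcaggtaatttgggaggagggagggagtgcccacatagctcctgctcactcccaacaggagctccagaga
TATAAA stood at bases 251 to 256 of the S100g window and at bases 208 to 213 of the Trpv5 window, counted from the window's 5′ end, and is held by 13.6% of all 32851 promoter windows on either strand. The 7 windows of the group belong to 6 genes, because Atp2b1 has windows at chr10:98914392-98914691 and chr10:98914902-98915201. No Calb1 promoter was searched. The full estrogen response element, GGTCA and TGACC around 3 bases of any kind, was in 0 of these 7 windows and in 0.07% of all windows. The element bound by progesterone and glucocorticoid receptors, GNACA and TGTNC around 3 such bases, was in 0 of 7 and in 0.475% of all. These letters were searched on both strands, the motifs did not overlap, and response elements farther from the start were not searched.

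Libraries held 129905950 to 195782326 reads assigned to genes. At that depth 3 reads, the limit that a count of 0 allows, equal a normalized count of 2.48 to 3.41. The first principal component over 17979 genes held 70.7% of the variance and put the controls at -85.9 to -49.3, mutants 1 and 3 at 84.2 and 97.0, and mutant 2 nearer to the controls at 28.9. Ncoa2 stood at 13598 ± 779 in controls and 7232 ± 501 in mutants (SD, n = 3), with no overlap (log2 difference -0.91, SE 0.20, adjusted p = 0.00953), a call lost without control 2 or control 3 (adjusted p = 0.0583 and 0.0585). The Ncoa2 call was also lost in limma with eBayes without trend (adjusted p = 0.119). All 6 genes listed as markers of the uterus were detected, of which 2 were called higher and 2 lower in the mutants (0 to 2 each with 1 library left out). In the mutants 11 of 12 epithelial marker genes were called higher, and their summed level was 137108 to 154621 in controls and 442835 to 882393 in mutants. Over all tested genes 5.34% were called higher and 4.08% lower. Of 9 stromal markers 3 were called lower, of 8 smooth muscle markers 1 (Des), and of 6 endothelial markers 5. These counts rested on single libraries: without control 3 they were 1, 0 and 0, without mutant 2 they were 4, 3 and 6, and without any other single library 1 to 2 endothelial, 2 stromal and 0 to 1 smooth muscle markers were lower. Of 8 leukocyte and 6 erythroid markers limma, edgeR and DESeq2 called 0, and in limma 2 leukocyte and 0 erythroid markers reached p under 0.05 before adjustment. Without 1 library at most 1 leukocyte marker and 2 erythroid markers were called. Among 6 trophoblast markers in the table Elf5 was called higher and Tfap2c lower, while Hand1 and Prl2c2 were at or near 0. In whole tissue, more cells of a type and more RNA per cell cannot be told apart, and the part that cell composition has in the changes below was not tested beyond the comparison with epithelial markers.

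Calb1 had the largest change of the group. Its level in normalized counts was 1350, 2941 and 1507 in controls 1 to 3, against 74025, 56884 and 39203 in mutants 1 to 3. Every mutant lay above every control, with the lowest mutant far over the highest control. The means were 1933 ± 876 and 56704 ± 17411.5 (SD, n = 3). The log2 difference was 4.92 (SE 0.31, 95% interval 4.26 to 5.57, adjusted p = 4.59e-07), and leaving out 1 library gave 4.70 to 5.26. With 3 mice a group an exact two-sided permutation test cannot go below p = 0.1, the value it gave here.

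S100g, the other calbindin gene, was already abundant in controls. It had 75957, 70122 and 43597 normalized counts in controls 1 to 3, against 47037, 21656 and 10231 in mutants 1 to 3. The groups overlapped, since mutant 1 stood above control 3, and the mutants spread over a 4.60-fold range. The means were 63225 ± 17247 and 26308 ± 18839, and the log2 difference was -1.49 (SE 0.42, 95% interval -2.39 to -0.59, adjusted p = 0.0385; exact permutation p = 0.2). The fall was not called by edgeR on whole reads (log2 difference -1.27, adjusted p = 0.0740), nor without control 1, control 2, control 3 or mutant 3. It had an adjusted p of 0.00242 to 0.265 over 21 alternatives, of which 12 ended the call and 0 turned its direction. Without mutant 1 the mutant mean was 25.2% of the control mean.

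Levels of different genes can be compared only per length, for which normalized counts were divided by the kilobases of annotated exon. That length joins the exons of all annotated transcripts of a gene. Which transcripts the uterus expressed was not tested, so rankings of genes rest on that choice. On that scale S100g had 131719 per kilobase in controls and 54808 in mutants, above 99.9% and 99.7% of 33154 genes with a length. Calb1 had 399 per kilobase in controls and 11701 in mutants, the sixth highest of the 7 genes in controls and the second in mutants. Calb1 made up 0.176%, 0.414% and 0.341% of the calbindin transcripts (Calb1 plus S100g, per kilobase) in controls 1 to 3. In mutants 1 to 3 it made up 13.5%, 20.6% and 27.5%, so on this scale S100g was still the more abundant in each library. Before division by length (4.85 kilobases for Calb1, 0.48 for S100g) Calb1 had the higher normalized count in each mutant. The sum of both was 132118 ± 35979 per kilobase in controls and 66509 ± 42758 in mutants (SD, n = 3), with overlapping groups (exact permutation p = 0.2).

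**Figure D1:**
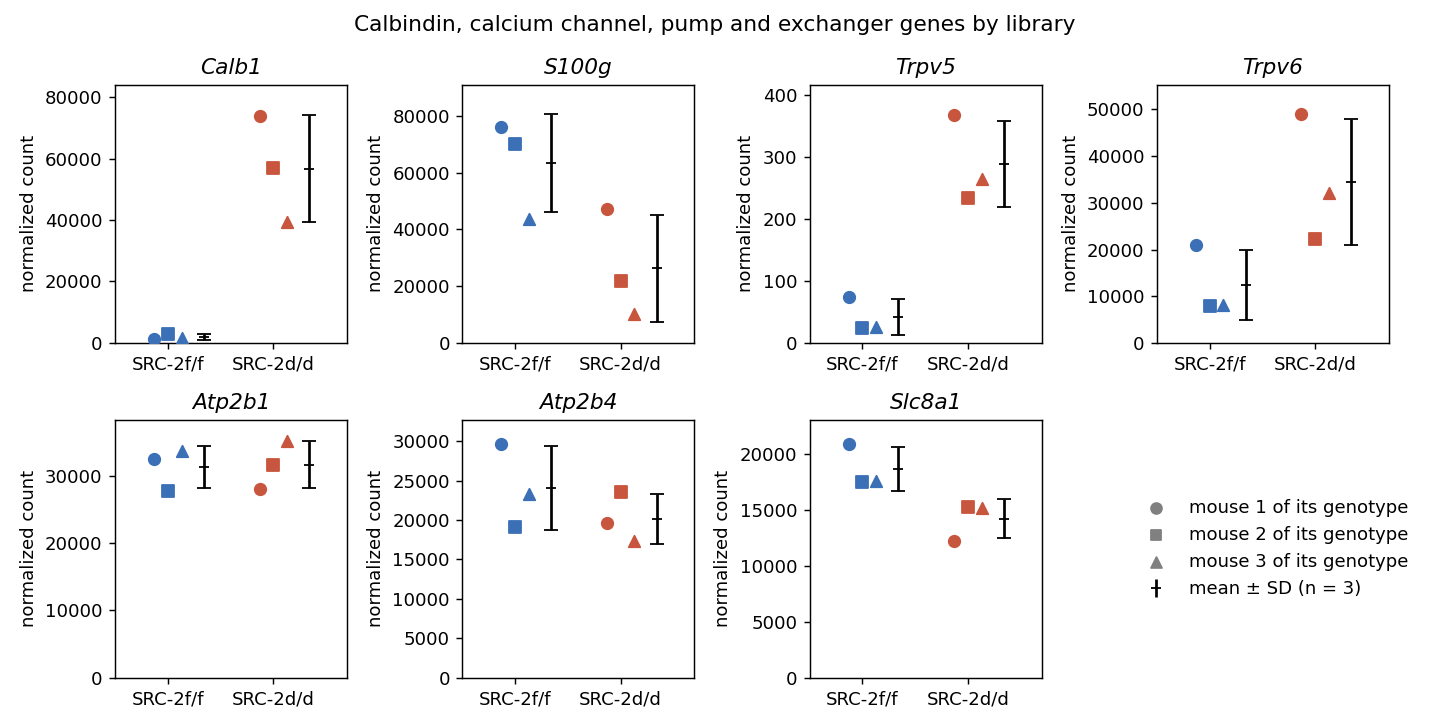
Normalized counts (vertical axes, from 0) of the 7 genes in each library, with 3 SRC-2f/f mice in blue, 3 SRC-2d/d mice in red, marker shapes for the mouse number and the mean ± SD beside each group. Calb1, Trpv5 and Trpv6 are higher in every mutant than in every control, S100g overlaps at 43597 and 47037, and Atp2b1 and Atp2b4 overlap throughout.

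Trpv6, the main apical calcium channel of most absorptive epithelia, had 21028, 7982 and 8069 normalized counts in controls 1 to 3. In mutants 1 to 3 it had 48957, 22279.8 and 32092. The lowest mutant, mutant 2, stood just above the highest control, control 1. The means were 12360 ± 7507 and 34443 ± 13493, and the log2 difference was 1.56 (SE 0.36, 95% interval 0.79 to 2.34, adjusted p = 0.0142; exact permutation p = 0.1). The ratio of means was 4.29 without control 1. The call was lost without control 2 (log2 difference 1.33, adjusted p = 0.0999), without control 3 (1.34, adjusted p = 0.141) and without mutant 1 (1.27, adjusted p = 0.0643), and its adjusted p over all alternatives was 0.00135 to 0.189.

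Trpv5, the channel best known from the distal tubule of the kidney, was the least abundant gene of the group. Its level in normalized counts was 74.7, 24.6 and 25.5 in controls 1 to 3, against 367, 234 and 264 in mutants 1 to 3. All mutants lay above all controls. The log2 difference was 2.93 (SE 0.51, 95% interval 1.83 to 4.04, adjusted p = 0.00233), and all 21 alternatives kept the call (log2 difference 2.67 to 3.45, adjusted p = 1.75e-07 to 0.0445). Control 1 held most of the control level, and without it the ratio of means was 11.5.

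Per kilobase of exon, Trpv6 transcripts outnumbered Trpv5 transcripts 232-, 267- and 261-fold in controls 1 to 3. The ratio was 110, 78.4 and 100.2 in mutants 1 to 3, below every control (exact permutation p = 0.1, the smallest possible). The 2 genes are paralogs, but 0 of the 3242 annotated 50-base stretches of Trpv5 and 0 of the 4074 of Trpv6 occur in transcripts of any other gene. Mutant 1 had the highest level of Calb1, S100g, Trpv5 and Trpv6 among the mutants. Among the controls, control 1 had the highest level of S100g, Trpv5 and Trpv6 but the lowest of Calb1.

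The exit step gave no call among the 3 members. Atp2b1, which encodes the widespread pump PMCA1, had 32479, 27695 and 33573 normalized counts in controls 1 to 3, against 28074, 31595 and 35080.2 in mutants 1 to 3. The groups overlapped fully. The log2 difference was 0.01 with a 95% interval of -0.43 to 0.46 (adjusted p = 0.979), so that in this fit changes beyond 1.38-fold up or to 0.741 of the control level lay outside the interval. Its sign turned under 6 of 21 alternatives, at -0.08 to 0.10 over all of them.

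Atp2b4, which encodes PMCA4, had 29673, 19135 and 23303 normalized counts in controls 1 to 3, against 19667, 23568.5 and 17308 in mutants 1 to 3. These values overlapped too, and the log2 difference was -0.24 (95% interval -0.73 to 0.25, adjusted p = 0.602). Slc8a1, which encodes the sodium-calcium exchanger NCX1, had 20961, 17497 and 17626 in controls 1 to 3, against 12208, 15264 and 15192 in mutants 1 to 3. Every mutant lay below every control, as was the case for 12.1% of all tested genes. The log2 difference of -0.40 (95% interval -0.84 to 0.05, adjusted p = 0.282; exact permutation p = 0.1) did not pass, and it was -0.48 to -0.29 over the alternatives. Both genes are also expressed by smooth muscle. The summed level of the 8 muscle markers was 672513 to 728004 in controls and 420912 to 558620 in mutants, and its part in these values was not tested. In all, the groups were apart for 4 of the 7 genes, against 25.5% of all tested genes. Mutants lay above controls for 3 genes and below for 1, the shares over all tested genes being 13.4% and 12.1%.

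**Figure D2:**
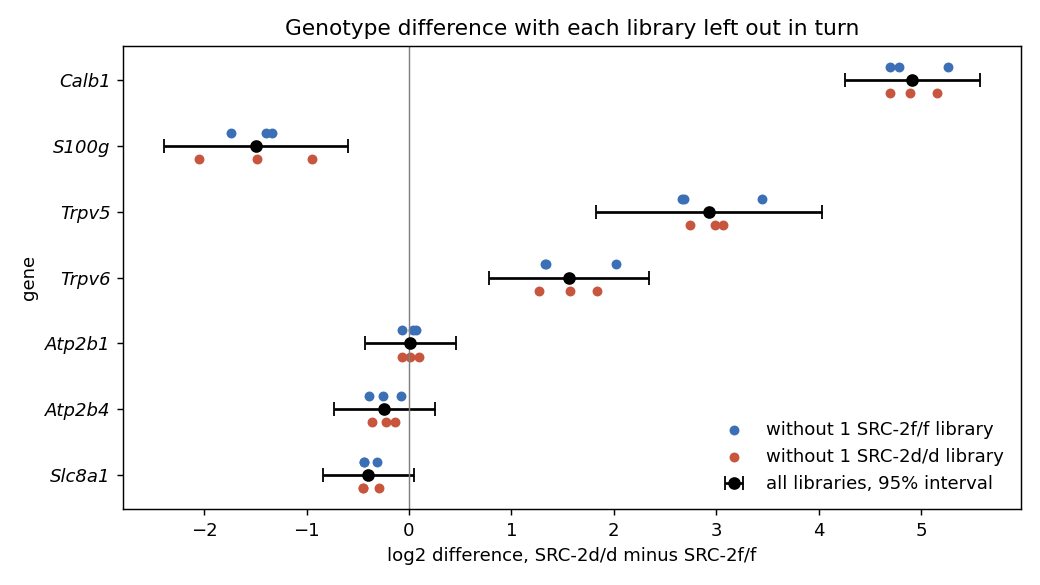
Log2 differences between SRC-2d/d and SRC-2f/f mice (horizontal axis, log2 of normalized count + 1) for the 7 genes, with the 95% interval from all 6 libraries in black and the value without each control (blue) or each mutant (red). Calb1 stays between 4.70 and 5.26, S100g moves between -2.05 and -0.95, and the intervals of Atp2b1, Atp2b4 and Slc8a1 include 0.

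Since epithelial markers were higher in the mutants, each gene was also set against the mean log2 level of the 12 epithelial markers in the same library, a difference that does not depend on how libraries are scaled. Calb1 was at -2.36 ± 0.60 relative to the markers in controls and at 0.31 ± 0.83 in mutants (SD, n = 3). Its rise was thus 2.67 larger on the log2 scale than that of the markers, and the groups stayed apart. S100g went from 2.72 ± 0.38 to -1.02 ± 1.39, a difference of -3.74, and on this scale every mutant lay below every control. On its own level S100g had a log2 difference of -1.49 and overlapping groups (exact permutation p = 0.2). The rest of the -3.74 is the rise of the markers. The separation on this scale is therefore no further evidence of a fall in S100g.

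For the channel genes the groups overlapped on this scale. Trpv6 was at 0.25 ± 0.77 in controls and -0.43 ± 0.54 in mutants (difference -0.68, exact permutation p = 0.4). Trpv5 was at -7.97 ± 0.86 and -7.28 ± 0.50 (difference 0.69, exact permutation p = 0.3).

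Atp2b1, Atp2b4 and Slc8a1 had differences of -2.23, -2.49 and -2.64 relative to the markers, without overlap. The mean log2 level of the markers was 13.1 to 13.2 in controls and 14.9 to 15.9 in mutants. A gene with an unchanged level thus falls on this scale, as Atp2b1 did with its own log2 difference of 0.01. The lack of overlap therefore does not show that the pump and exchanger genes fell, and its share over all tested genes was not computed. For Atp2b1, Atp2b4, Slc8a1, Calb1 and S100g the exact permutation p was 0.1, the smallest possible. With Cdh1 and Epcam as the only markers, or with any 1 library left out, all 7 differences kept their sign and moved by less than the larger of the SDs of the 2 groups.

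**Figure D3:**
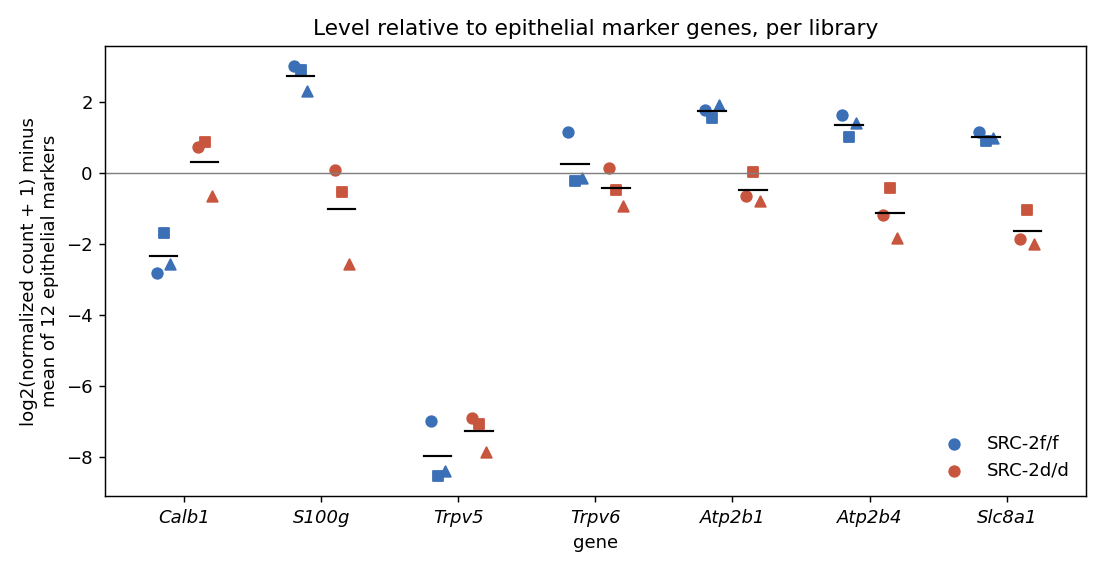
Level of each gene relative to the mean of 12 epithelial marker genes (vertical axis, difference of log2 values) in 3 SRC-2f/f (blue) and 3 SRC-2d/d (red) libraries, with marker shapes for the mouse number and a line at each group mean. Calb1 is above the control range in all mutants, S100g is below it, and Trpv5 and Trpv6 overlap. A gene with an unchanged level falls on this scale, because the markers were higher in the mutants.

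Among 25 other genes listed as partners of apical-to-basolateral transport 3 rose and 0 fell by limma, edgeR or DESeq2 (1 lower at an unadjusted p under 0.05 by limma). Over all tested genes limma called 5.34% higher and 4.08% lower. The list's median log2 difference was -0.11, beside -0.01 over all tested genes. The 3 genes were Atp2b2, Bspry and Slc9a3r1, and each was called with any 1 library left out. The Slc9a3r1 call was lost in limma with eBayes without trend (adjusted p = 0.0802). Atp2b2 encodes PMCA2, the pump known for exporting calcium into milk in the mammary gland. On which side of uterine cells it acts was not tested, so its rise is not a rise of the basolateral exit step. It had 1496, 2016 and 1128 normalized counts in controls 1 to 3, against 37745, 35933 and 34004 in mutants 1 to 3, a narrow range in the mutants (log2 difference 4.57, SE 0.24, adjusted p = 7.38e-08). Bspry, whose product has been described as a partner of TRPV5, rose from 2770 ± 214 to 16592 ± 6117 (2.52, SE 0.26, adjusted p = 3.15e-05). Slc9a3r1, which encodes the apical scaffold NHERF1, rose from 8265 ± 654 to 21146 ± 4884 (1.33, SE 0.23, adjusted p = 0.00188). The genes for S100A10 and annexin A2, partners of TRPV5 and TRPV6 at the membrane, and those for the 3 calmodulins were not called, with log2 differences from -0.27 for Calm3 to 0.20 for Anxa2.

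Per kilobase of exon the plasma membrane pump family changed its makeup. Atp2b2 made up 2.54%, 4.51% and 2.13% of the 4 Atp2b transcripts in controls 1 to 3, against 46.4%, 41.6% and 42.0% in mutants 1 to 3. On this scale it was the most abundant of the 4 in each mutant, and Atp2b1 and Atp2b4 shared nearly all of the rest. Before division by length Atp2b1 stood above Atp2b2 in mutant 3 (35080.2 against 34004 normalized counts). The family's sum was 4140 ± 569 per kilobase in controls and 6570 ± 243 in mutants (SD, n = 3), a 1.59-fold difference without overlap (exact permutation p = 0.1). Of the annotated 50-base stretches of Atp2b2, 0.055% also occur in another of the 4 pump genes, as do 0.145% of those of Atp2b3 and 0 of those of Atp2b1 and Atp2b4. In any other gene 1.27% of those of Atp2b1 and 0.973% of those of Atp2b4 occur.

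**Figure D4:**
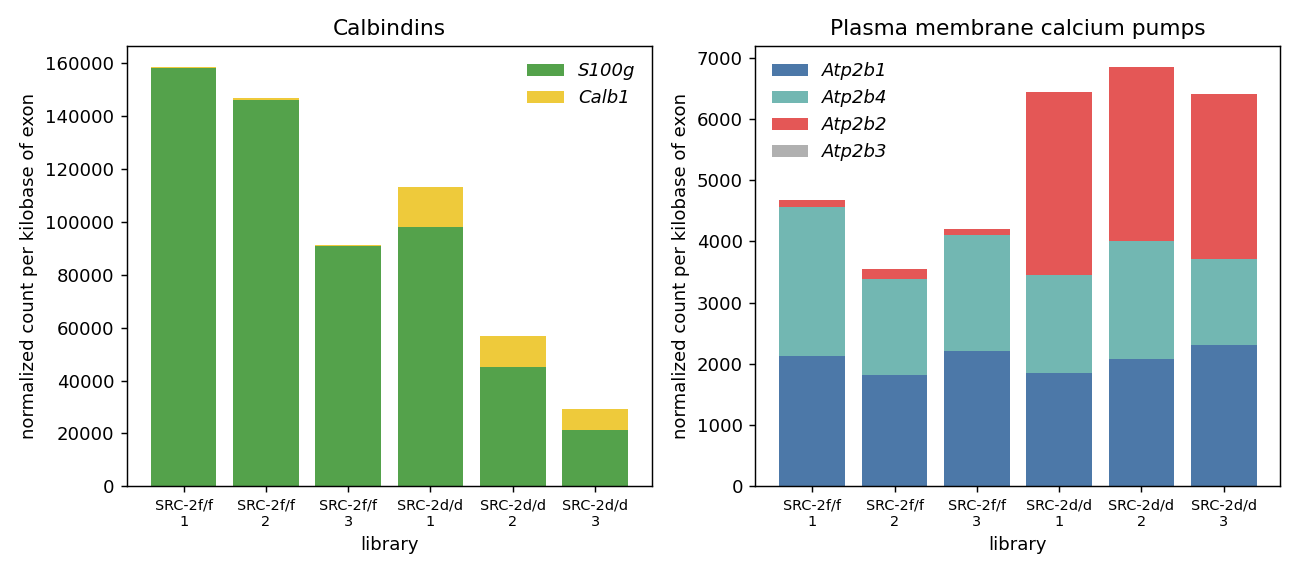
Stacked levels per kilobase of annotated exon (vertical axes, normalized count per kilobase) of the calbindin genes (left) and of the plasma membrane calcium pump genes (right) in each of the 6 libraries. Calb1 is 0.176% to 0.414% of the calbindin sum in controls and 13.5% to 27.5% in mutants, and Atp2b2 is 41.6% to 46.4% of the pump sum in mutants.

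Genes of intracellular calcium stores and store-operated entry were called higher in 5 of 24 cases and lower in 0, by limma, edgeR and DESeq2 (7 and 0 at an unadjusted p under 0.05 by limma), with a median log2 difference of 0.10. The limma shares over all tested genes were 5.34% higher and 4.08% lower. Atp2c2, which encodes the secretory pathway pump SPCA2, had 353, 429 and 239 normalized counts in controls 1 to 3, against 35244, 13028 and 31578 in mutants 1 to 3. It rose 78.2-fold (log2 difference 6.20, SE 0.35, adjusted p = 2.13e-07) and was higher in every mutant than in every control. Its share of secretory pathway pump transcripts (Atp2c1 plus Atp2c2, per kilobase) was 4.90% to 9.84% in controls and 75.3% to 89.2% in mutants. The inositol trisphosphate receptor genes Itpr3 (log2 difference 1.03) and Itpr2 (0.83), the store sensor gene Stim2 (0.95) and the reticulum pump gene Atp2a3 (0.75) were called too. Of these Itpr3 lost the call without control 2, Itpr2 without controls 2 and 3 and mutants 1 and 2, and Stim2 and Atp2a3 without any library other than mutant 2, so that 1 to 4 genes were called with 1 library left out. The Atp2a3 call also ended in limma with a pseudocount of 0.5 (adjusted p = 0.0517) or 0.1, without the filter, and with TMM, quantile or equal-total scaling. Itpr3, Itpr2, Stim2 and Atp2a3 all lost the call with eBayes without trend (adjusted p = 0.114 to 0.239), and Itpr2 with quantile scaling.

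Of 23 other TRP channel genes 2 rose, Trpv4 and Trpm4, and 1 fell, Trpa1, at a median log2 difference of -0.07. Beside this stand 5.34% of all tested genes called higher and 4.08% called lower. Trpv4, an osmosensitive and mechanosensitive calcium channel gene, stood at 1306 ± 124 in controls and 3384 ± 1092 in mutants (1.32, SE 0.27, adjusted p = 0.00698), a call lost without control 2 (1.26). Trpm4 (0.95) was not called without any library other than mutant 2. Trpa1, the gene of an irritant-sensing channel, had 69.4, 71.6 and 106.9 normalized counts in controls 1 to 3. In the mutants reads were found in mutant 2 alone, at 6.24, while mutants 1 and 3 were at 0 (adjusted p = 0.00114).

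Among 22 genes of vitamin D metabolism and calcium-regulating hormones 4 rose (Ramp3, Stc2, Pth2r and Lrp2) and 3 fell (Calca, Ramp1 and Stc1), at a median of -0.29. Shares over all tested genes were 5.34% higher and 4.08% lower. Ramp3, a receptor subunit that turns the calcitonin receptor-like receptor towards adrenomedullin, rose 9.48-fold (log2 difference 3.24, SE 0.24, adjusted p = 1.50e-06), while Ramp1, the subunit for calcitonin gene-related peptide, fell to 47.1% of the control level (-1.09, SE 0.22, adjusted p = 0.00699). The genes of the secreted stanniocalcins went apart, Stc2 rising 9.14-fold (3.11, SE 0.29, adjusted p = 1.08e-05) and Stc1 falling from 1702 ± 745 to 511 ± 96.9 (-1.64, adjusted p = 0.00797). Calls were lost for Ramp1 and Stc1 without control 2 or 3, for Pth2r without control 3 or mutant 3, and for Lrp2 without any 1 control. The ratio of means of Pth2r was 9.05, and 18.4 without control 2, and that of Lrp2 was 2.77, and 1.81 without mutant 2. Calca was called without each library in turn.

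**Figure D5:**
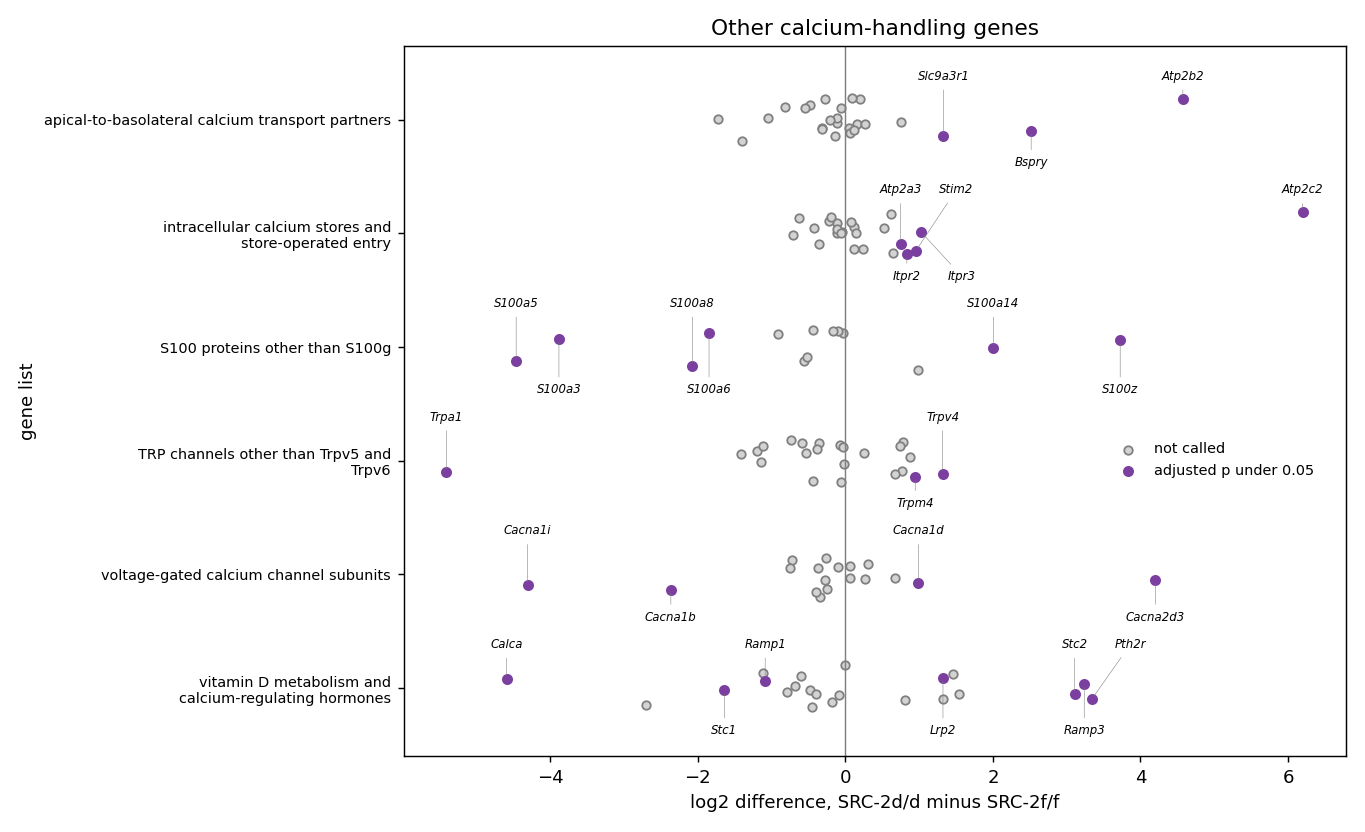
Log2 differences between SRC-2d/d and SRC-2f/f mice (horizontal axis) for the tested genes of 6 lists of other calcium-handling genes (vertical axis, with random vertical spread), called genes in purple with their symbols and others in grey. The largest rises are those of Atp2c2 at 6.20 and Atp2b2 at 4.57.

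The likeness of other genes to each member was measured over the 6 libraries as the root mean square difference of log2 levels, after each gene's control mean was subtracted, among 17978 genes with a mean of at least 100. Nearest to Calb1 were Fxyd4, which encodes a regulator of the sodium pump, at 0.38, Atp2b2 at 0.39 and Naip3 at 0.42. Fxyd4 went from 1306 to 40981 on average. Nearest to S100g were Gm42991 (0.18), Gm12503 (0.21) and Unc80 (0.25). Trpv5 was followed most closely by 4933401H06Rik (0.19), Gm47767 (0.25) and Ptpn5 (0.27), and Trpv6 by Gm48302 (0.18), Gm42572 (0.19) and Gm15374 (0.20). Of these 12 genes Gm42991, Gm12503, Gm42572 and Gm15374 were not called (adjusted p = 0.0849, 0.0974, 0.0835 and 0.0670). The limit of 100 was set on both groups together, so a gene could enter through its level in 1 group. Naip3, 4933401H06Rik, Gm47767, Gm48302 and Gm15374 averaged below 100 in controls alone, and Gm12503 in mutants alone. Trpv5 itself averaged below 100 in controls. How far this limit shaped the nearest genes was not tested. The nearest genes of the 3 uncalled members are not named.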

How the data were processed

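Total RNA of uterus was made into libraries with a stranded mRNA kit, per the labels' protocols, and per the submitters' processing notes the tools were HISAT2, HTSeq and DESeq. The build, annotation, strand setting and handling of multiply mapped reads were not stated in the labels. The authors' deposited table is titled FPKM, but its values are a signal made of whole reads divided by 1 size factor per library: 100% of values in each library were multiples of its lowest value above 0 by a whole number (tolerance 1e-06 of a read). They are not corrected for gene length.

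The main test was limma 3.58.1 (R 4.3.3), with a mean-variance trend in eBayes, on log2(normalized count + 1) of genes with a mean of at least 0.5, with genotype as the only term. Fold changes on this scale understate those of low genes. FPKM values had been assumed when the test was planned, and it was kept. Recovered reads were tested with edgeR 4.0.16 and DESeq2 1.42.0 as alternatives. Procedures were tested on simulated data. Exon lengths and 50-base stretches come from GENCODE M21, which may differ from the authors' annotation. Members, lists and tests were chosen with earlier results of these data known. The genes named are the members, Ncoa2, up to 4 called genes per list (2 with the smallest p where none was called) or all members of a count of 5 or fewer, and the 3 nearest genes of each called member. Calm3, Anxa2, S100a10 and the markers were named after their values were seen. Replicates are different mice. Other settings were other pseudocounts, filters and scalings, eBayes without trend or robust, array weights, a replicate block and each library left out.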

Additional observations from a re-analysis of the deposited data

How the results depend on the processing

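Calb1 and Trpv5 were called and Atp2b4 and Slc8a1 were not called under all 21 alternatives, with their signs kept. The single lower member, S100g, was not called (0 members lower) with a pseudocount of 0.1 (log2 difference -1.49, adjusted p = 0.0682), a mean of at least 100 (-1.49, 0.0510), TMM scaling (-1.54, 0.0506), quantile scaling (-1.54, 0.0830), equal library totals (-1.54, 0.0723), eBayes without trend (-1.49, 0.265), robust eBayes (-1.49, 0.260) or edgeR (-1.27, 0.0740). With 1 library left out S100g ran from -2.05 to -0.95 and 0 to 1 members were lower. Trpv6 was not called with quantile scaling (1.51, adjusted p = 0.0560), eBayes without trend (1.56, 0.189) or robust eBayes (1.56, 0.0949), and ran from 1.27 to 2.03 with 1 library left out. Atp2b1, near 0 throughout, changed sign with TMM scaling (-0.0356), quantile scaling (-0.0783), equal library totals (-0.0370), edgeR (-6.54e-04), without control 2 (-0.0702) and without mutant 3 (-0.0643), and ran from -0.07 to 0.10 with 1 library left out. The causes were not tested.

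Over all genes 1929 were higher and 1476 lower. eBayes without trend gave 683 and 315, array weights 2500 lower, edgeR 1996 and 1293, and removal of 1 library 1013 to 2598 and 315 to 2813. Of 36 called genes named outside the group 17 were called without each library in turn, and eBayes without trend ended 21 of those calls. The replicate numbers were taken as names of mice and not as pairs. Deviations of same-numbered libraries correlated at 0.38, the highest of all pairs, 0.01 and 0.03 across genes. Controls 2 and 3 did not correlate best with their own numbers (control 3 at 0.34 with mutant 2). Whether same-numbered libraries share a batch was not tested. A fit with the replicate number as a block gave 2104 higher and 1708 lower genes and called the same 3 and 1 members. Its adjusted p was lower than in the main fit for S100g (0.00667) and Trpv6 (0.00135), and higher for Calb1 (1.31e-05) and Trpv5 (0.00272). The member with the fewest reads was Trpv5, with 1000 over the 6 libraries.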

Other observations

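Other listed genes of the S100 family, small calcium-binding proteins related to S100g, were called lower in 4 of 14 cases (S100a3, S100a5, S100a6 and S100a8) and higher in 2 (S100a14 and S100z). By edgeR 4 were lower and 1 higher. S100a10 was counted with the transport partners and not among the 14 (log2 difference -0.13, not called). Of all tested genes limma called 4.08% lower and 5.34% higher. The list's median log2 difference was -0.48, beside -0.01 over all tested genes. S100a6, whose product calcyclin is abundant in fibroblasts, had 52645, 97160.0 and 78716 normalized counts in controls 1 to 3, against 19785, 31114 and 14018.5 in mutants 1 to 3, without overlap (-1.85, SE 0.30, adjusted p = 0.00141). S100a3 fell from between 182 and 369.7 in the controls to between 6.62 and 31.8 in the mutants, and S100a8, a calgranulin gene of myeloid cells, fell from 717 ± 135 to 183 ± 100.4. S100a5 stood at 81.3 ± 20.2 and 5.62 ± 7.99, a call lost without control 3, and 6.91% of the control level was left, or 1.28% without mutant 1. S100a14 was not called without any library other than mutant 1. S100z was found at 3.06 in control 3, which equals 3 reads, at 0 in controls 1 and 2 and at 20.3 ± 3.46 in mutants. It was not called by edgeR (adjusted p = 0.0575), nor without control 1 or control 2.

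Subunits of voltage-gated calcium channels were called higher in 2 of 18 cases (Cacna2d3 and Cacna1d) and lower in 2 (Cacna1i and Cacna1b), beside 5.34% and 4.08% of all tested genes. Cacna2d3, an auxiliary subunit gene, had 162, 160.4 and 135 normalized counts in controls 1 to 3, against 4826, 946 and 4877 in mutants 1 to 3 (log2 difference 4.20, SE 0.50, adjusted p = 1.07e-04). It was called without each library in turn, whereas Cacna1d (0.99) was not called without controls 2 or 3 or mutant 1, Cacna1i without control 3, and Cacna1b without any library other than mutant 2.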
